A study of Mus musculus with 15 samples.

Results

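The 10 genes described here, Myod1, Myog, Myf5, Des, Tnni2, Tnnt3, Tnnc2, Acta1, Mylpf and Ckm, are genes of skeletal muscle that were followed in cultures of primary mouse chondrocytes. They were taken by name, with earlier results of these data already known. Every probe set that the platform annotation maps to these symbols alone was used. This gave 15 of the 45101 probe sets on the array, for 10 of the 18194 genes with a probe set of 1 symbol. Of these 15 probe sets, 9 had a mean signal of 50 or more in at least 1 of the 5 groups and were tested, 1 for each of 9 genes. Myf5 had no such probe set.

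Skeletal muscle is made when the transcription factors Myod1 and Myf5 commit precursor cells to the muscle fate and myogenin, the product of Myog, drives their fusion into fibres. These factors pair with E proteins and bind the E-box, a short DNA motif in the control regions of many muscle genes. The fibres contract through the sarcomere, in which actin and the troponins form the thin filament and myosin with its light chains forms the thick filament, desmin links neighbouring sarcomeres, and creatine kinase restores the ATP that they use. In the embryonic limb, muscle lies against the cartilage of the long bones, and cells of both tissues can be released when the bones are digested.

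The cells came from the long bones of CD1 mouse embryos at day 15.5 of gestation, were freed with trypsin and collagenase, and were grown in monolayer. All 5 groups, of 3 arrays each, received the vehicle DMSO or an inhibitor for 24 hours, namely DMSO alone, 10 µM LY294002 (which blocks the lipid kinase PI3K), 10 µM UO126 (which blocks MEK, the kinase above ERK), 10 µM SB202190 (listed by the submitters as a MEK/ERK pathway inhibitor and usually described as a blocker of p38 MAP kinases) or trichostatin A (TSA, a blocker of histone deacetylases, with a dose whose unit is unclear in the labels and which is left out). No gene was deleted and no cell was sorted, so each culture holds whatever cells the digest released, and the labels do not say how many embryos went into a culture. The arrays carry the numbers 1 to 3 in their titles, though nothing in the labels ties equal numbers to a common experiment, and p-values measure the spread between these arrays only. With group means taken out, each of the 15 arrays was nonetheless on average most like the arrays of its own number. Results with replicate number as a block are therefore given beside the main fit, which leaves the number out.

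The promoters of the muscle genes are shown because the regulators measured here, Myod1 and Myog, bind the E-box, and because 4 of the genes, Myog, Tnnc2, Acta1 and Mylpf, moved together across the arrays. RefSeq windows of the 250 bases before the start of transcription (mouse GRCm38.p6) were found for 7 of the 10 genes, and 6 of these 7 held at least 1 E-box (CANNTG, which reads the same on both strands), against 66.2% of 32851 such windows. The windows lie at chr1:134289754-134290003 on the plus strand for Myog, chr2:164779735-164779984 on the minus strand for Tnnc2, chr8:123894776-123895025 on the minus strand for Acta1 and chr7:127211358-127211607 on the plus strand for Mylpf, and are written from 5′ to 3′ with each E-box in capitals and, in Acta1 alone, a CArG box as well.
Myog: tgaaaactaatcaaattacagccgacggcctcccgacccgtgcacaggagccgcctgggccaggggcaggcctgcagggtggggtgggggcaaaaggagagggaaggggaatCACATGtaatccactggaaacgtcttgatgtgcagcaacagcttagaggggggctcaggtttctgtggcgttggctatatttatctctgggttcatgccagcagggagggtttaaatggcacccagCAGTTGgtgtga
Tnnc2: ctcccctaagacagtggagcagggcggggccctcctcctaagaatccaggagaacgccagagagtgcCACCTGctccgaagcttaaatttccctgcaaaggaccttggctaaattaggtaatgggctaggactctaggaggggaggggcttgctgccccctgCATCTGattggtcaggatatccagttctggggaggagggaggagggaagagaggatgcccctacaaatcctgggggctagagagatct
Acta1: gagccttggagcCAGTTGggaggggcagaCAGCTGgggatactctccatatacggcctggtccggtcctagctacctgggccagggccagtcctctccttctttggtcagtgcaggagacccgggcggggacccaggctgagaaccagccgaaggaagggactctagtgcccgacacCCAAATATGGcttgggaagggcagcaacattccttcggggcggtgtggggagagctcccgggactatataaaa
Mylpf: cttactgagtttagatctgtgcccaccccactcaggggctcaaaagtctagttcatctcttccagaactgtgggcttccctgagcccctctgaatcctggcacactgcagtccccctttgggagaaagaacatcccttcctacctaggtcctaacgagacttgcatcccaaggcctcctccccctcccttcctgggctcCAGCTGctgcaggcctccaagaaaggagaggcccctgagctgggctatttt

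Counted from the start of transcription, the E-boxes began 138 and 12 bases upstream in Myog, 183 and 88 in Tnnc2, 238 and 221 in Acta1 and 51 in Mylpf, and the windows not printed held them 220 and 36 bases upstream in Des and 249 in Ckm, while the Myf5 window held none. The CArG box, to which serum response factor binds, began 73 bases upstream in Acta1 and occurred in 1.47% of all windows. The MEF2 motif was sought only as YTAWWWWTAR, where Y is C or T, W is A or T and R is A or G. In this strict form it occurred in 0 of the 7 windows and in 2.92% of all windows. The Myog window holds CTATATTTAT, which departs from that form in its last base alone, so a looser form would have been found there. These matches describe letters only, and no binding was measured in these cultures.

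The signals are MAS5 intensities, scaled so that the mean of each array without the lowest and highest 2% of values is 150. The median signal was between 29.8 and 39.96 over the 15 arrays, and precision is limited by having 3 arrays a group. Chondrocyte markers were present in the cultures, and all 12 chondrocyte markers examined, among them Col2a1 (type II collagen), Acan (aggrecan) and Sox9, passed the signal threshold. Of 90 further skeletal muscle genes in 4 groups, 85 had a probe set and 37 passed it. These included the embryonic myosin heavy chain Myh3 and Actc1, a cardiac actin that embryonic skeletal muscle also makes, whereas the adult fast myosins Myh1, Myh2 and Myh4 and the muscle stem cell factors Pax3 and Pax7 were under the threshold in every group. Myh8, a myosin of muscle around birth, was under it too, and Myoz1, Actn3, Atp2a1 and Casq1, genes of fast fibres, passed it. No stage of the muscle is read from these genes. An RNA level in such cultures depends on how many muscle cells they hold and on how much of the RNA each cell makes, and these cannot be told apart here.

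In the cultures given DMSO, each of the 9 tested genes had a mean signal above 50, and their 3 arrays differed from each other by up to 2.995-fold. The regulator Myod1 had signals of 86.7, 81.4 and 41.4 on DMSO arrays 1, 2 and 3, with a mean ± SD of 69.8 ± 24.7. Myog had signals of 136, 86.1 and 53.9. For both regulators array 1 was highest and array 3 lowest. Myf5 had signals of 4.33, 6.98 and 3.7 in DMSO and between 0.988 and 8.67 over all 15 arrays, so no level of this regulator can be given.

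Des, which encodes desmin, had signals of 97.7, 86 and 73 in DMSO. Of the thin filament genes, Tnni2, the inhibitory subunit of fast troponin, had signals of 118, 84.4 and 101, and Tnnt3, the subunit that binds tropomyosin, had 173, 163 and 99.7. The calcium-binding subunit Tnnc2 spread the most, at 140, 74.4 and 46.6. Acta1, skeletal alpha-actin, had signals of 430, 335 and 234, and Mylpf, the fast regulatory light chain of myosin, had 240, 160 and 95.2. Except in Tnni2, array 3 was the lowest of the 3 DMSO arrays in each of these genes. The tested probe set of Ckm, muscle creatine kinase, ran the other way, with 67 on array 1, 104 on array 2 and 77 on array 3.

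**Figure D1:**
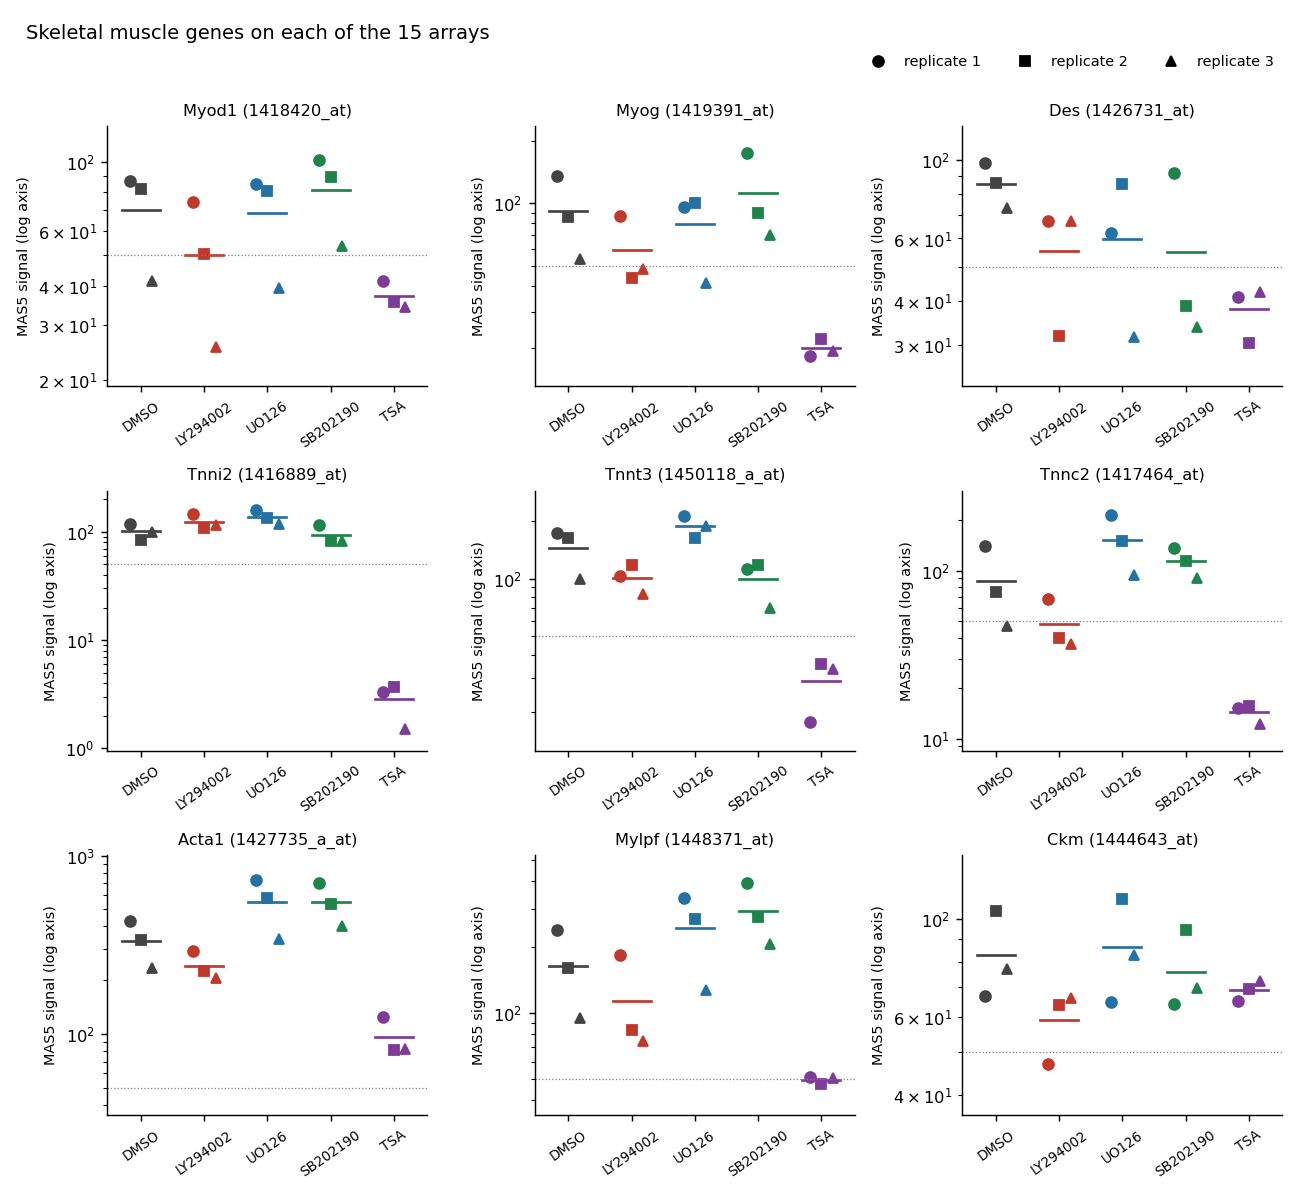
Signals (MAS5, log axes) of the 9 tested probe sets by treatment, array by array. Point shapes give the replicate number, horizontal bars the mean of 3 arrays and the dotted line the threshold of 50. TSA arrays lie below all DMSO arrays in 7 genes but not in Myod1 or Ckm, and number 1 (circles) often lies above number 3 (triangles).

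The replicate number of the titles went with the level of the muscle genes with DMSO, LY294002, UO126 and SB202190, and in fewer genes with TSA. Over the 5 groups, array 1 was the highest of its group in 30 of 45 gene and group pairs and array 3 was the lowest in 30 of 45. Array 1 was the highest in 8, 6, 6 and 7 of 9 genes in the first 4 groups, but in 3 of 9 with TSA, where array 3 was the lowest in 3 of 9. In a model with terms for group and for number, 4 of 9 genes, Acta1, Myod1, Mylpf and Tnnc2, differed by number (limma F test, Benjamini-Hochberg adjusted p = 0.00236, 0.0122, 0.0204 and 0.0226), against 4.36% of all 21765 probe sets tested. The log2 difference of array 3 from array 1, averaged over groups, was -0.77 in Acta1, -0.98 in Myod1, -0.99 in Mylpf and -0.91 in Tnnc2. It was -0.93 in Myog (adjusted p = 0.0618), -0.56 in Des (0.338), -0.53 in Tnni2 (0.19) and -0.21 in Tnnt3 (0.442), and 0.26 in Ckm (0.0678). The count of 4 fell to 2 when DMSO array 1 or 3, LY294002 array 1, or UO126 array 1 or 3 was left out.

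Acta1, Mylpf and Myod1 were highest on array 1 in 5 of 5 groups, and Tnnc2 and Tnni2 in 4 of 5, so that 5 of the 9 genes were highest with number 1 in at least 4 groups, against 10.4% of all probe sets. Myod1 and Tnnc2 were lowest on array 3 in 5 of 5 groups and Acta1 and Mylpf in 4 of 5, against 11.9% of all probe sets. Ckm was lowest on array 1 in 5 of 5 groups. Of 15 other genes of the sarcomere, 8 were called by number, against 4.36% of all probe sets, and 7 of the 8 were lower on array 3 than on array 1. A negative difference was found in 11 of 15 (median log2 difference -0.90, against 0.0062 for all probe sets). Among the 7, Myh3 differed by -1.32, Actc1 by -1.25 and Myl1, a fast myosin light chain, by -0.90 on the log2 scale. The remaining called gene, Myoz1, a Z-disc protein of fast fibres, was higher on array 3 (0.66, adjusted p = 0.000635).

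The chondrocyte markers ran the opposite way. Past the threshold were 9 of 12, against 4.36% of all probe sets, and all 12 were higher on array 3 than on array 1 (median log2 difference 0.48). Their summed signal was 26548 on DMSO array 1, 33868 on array 2 and 41514 on array 3, while the summed signal of the 9 muscle probe sets was 1488, 1174 and 821 on the same arrays. The part of the cell mixture in the differences by number was not tested. The muscle membrane and calcium genes (0 of 11 called), the muscle energy genes (0 of 5), and the regulation and fusion genes (0 of 6) had no gene past the threshold in limma's test by number, although 2, 1 and 3 of them had an unadjusted p under 0.05.

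**Figure D2:**
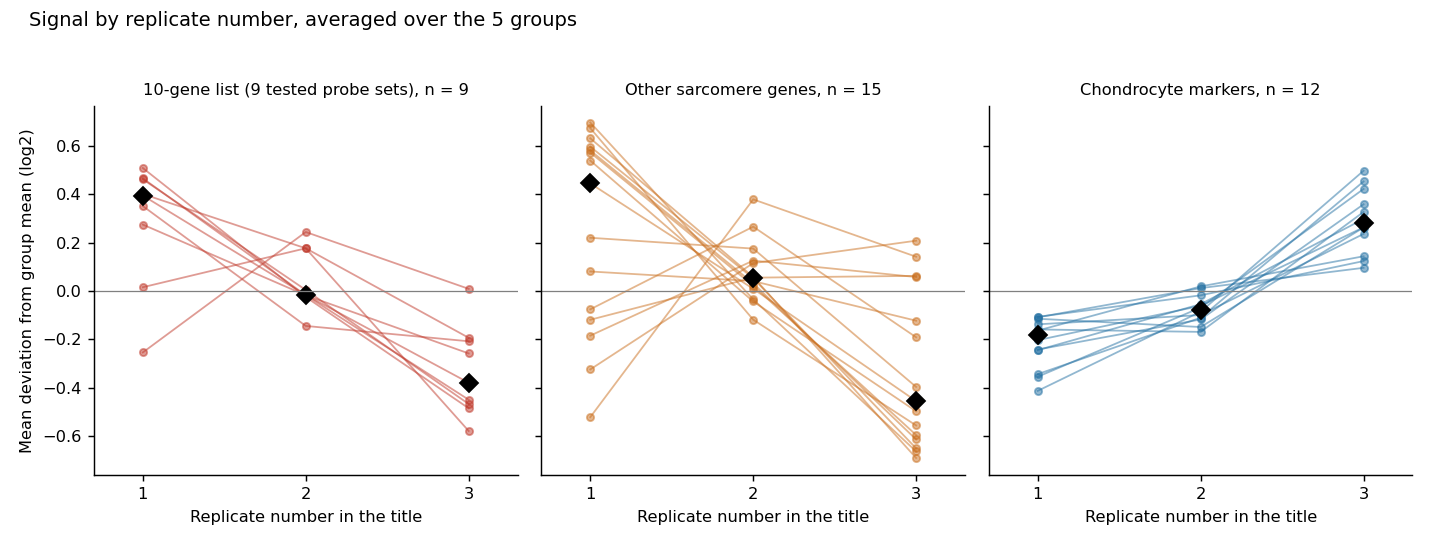
Deviation of the log2 signal from the mean of its group, averaged over the 5 groups, by replicate number, for the 9 muscle probe sets, 15 other sarcomere genes and 12 chondrocyte markers. Each line is a gene and each diamond the median. The muscle genes are mostly higher at number 1 than at number 3, with the tested Ckm probe set an exception, and the 12 chondrocyte markers are all higher at number 3 than at number 1.

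Of the 4 inhibitors, TSA had the largest median difference from DMSO over the muscle genes. With TSA 7 of the 9 genes, Myog, Des, Tnni2, Tnnt3, Tnnc2, Acta1 and Mylpf, were lower than with DMSO (adjusted p under 0.05) and 0 were higher, against 26.6% of all probe sets called lower, and 54.7% called in either direction. All 9 differences were negative, with a median log2 difference of -1.78, against -0.013 over all probe sets. The 3 TSA arrays lay below all 3 DMSO arrays in the same 7 genes, whereas this held for 28.6% of all probe sets.

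Among the regulators, Myog had signals of 18.3, 22.1 and 19.4 on TSA arrays 1, 2 and 3, below each DMSO array, and fell by 2.11 ± 0.41 on the log2 scale (estimate ± SE, adjusted p = 0.000447). Myod1 had signals of 41.5, 35.4 and 34.1 with TSA, and DMSO array 3, at 41.4, lay among them. Its difference of -0.85 ± 0.40 did not pass the threshold (adjusted p = 0.0834, between 0.00253 and 0.38 over 27 alternatives), and it did so in 5 of them, namely the 2 groups alone, replicate number as a block, and without DMSO array 3, LY294002 array 3 or the 5 arrays numbered 3. Des had signals of 41.1, 30.5 and 42.5 and fell by 1.17 ± 0.40 (adjusted p = 0.0221). The Des call was lost without DMSO array 1, DMSO array 2, TSA array 2 or the 5 arrays numbered 1 or 2 (adjusted p up to 0.0983).

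The thin filament genes were all lower with TSA. Tnni2 had signals of 3.32, 3.71 and 1.49 with TSA, against 84.4 or more on the DMSO arrays, with a fitted log2 difference of -5.25 ± 0.29 (adjusted p = 1.26e-09). Signals this low carry no order, and with all signals under 50 set to 50 the difference was -1.0, still past the threshold (adjusted p = 0.00019). Tnnt3 had signals of 17.8, 35.8 and 33.6 and fell by 2.34 ± 0.28 (adjusted p = 4.1e-06). Tnnc2 had signals of 15.2, 15.7 and 12.2 and fell by 2.46 ± 0.37 (adjusted p = 3.9e-05). With signals under 50 set to 50, the calls of Tnnc2 (adjusted p = 0.0939) and Myog (0.0966) were lost, while those of Des, Tnni2, Tnnt3, Acta1 and Mylpf were kept.

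Acta1 stayed above 50 on each TSA array, at 124, 81 and 82.1, and it fell by 1.78 ± 0.28 (adjusted p = 6.86e-05), a level 3.44-fold lower than in DMSO with both sides above the threshold, and the call held in all 27 alternatives. Mylpf had signals of 51.2, 47.5 and 50.6, all below the lowest DMSO array at 95.2, and fell by 1.63 ± 0.40 (adjusted p = 0.00251, and 0.052 without the 5 arrays numbered 2). The tested Ckm probe set had signals of 65.3, 69.4 and 72.2, of which the lowest was just under the lowest DMSO array (67), and its difference was -0.24 ± 0.23 (adjusted p = 0.39).

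TSA changed markers of the culture as a whole as well. The summed signal of the 9 muscle probe sets was between 341 and 378 with TSA and between 821 and 1488 with DMSO, and that of the 12 chondrocyte markers was between 14633 and 16721 with TSA and between 26548 and 41514 with DMSO. Of the chondrocyte markers 11 of 12 were lower with TSA, against 28.4% of all genes, with a median log2 difference of -2.08 (0.0013 for all genes). Of the 37 other skeletal muscle genes, 15 were lower and 7 were higher, against 28.4% and 30.6% of all genes, and with signals under 50 set to 50 these were 8 and 7. These counts include genes tested only because of the group in which they were high, namely Cav3 in DMSO and Cox7a1, Itga7 and Dmd with TSA. How far the cell mixture or cell number takes part in these differences was not tested.

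**Figure D3:**
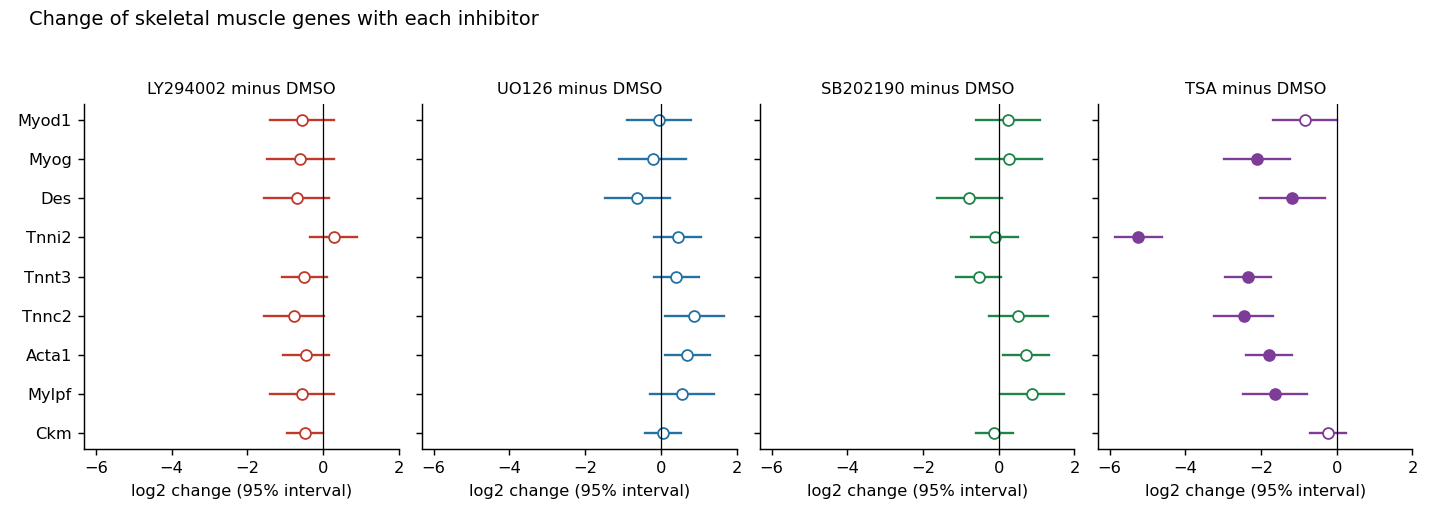
Log2 difference from DMSO of the 9 tested muscle probe sets with each inhibitor, with 95% intervals from the fit over all 15 arrays. Filled circles passed an adjusted p of 0.05. With TSA 7 of 9 are filled, all below 0, and with the other inhibitors 0 of 9 are filled. The fit shown leaves out replicate number. With that number as a block, 8 of 9 passed with TSA and 2 of 9 with each of LY294002, UO126 and SB202190.

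With LY294002 the muscle genes lay on the whole below DMSO, but 0 of 9 passed the threshold in limma, and 0 had an unadjusted p under 0.05, against 7.78% of all probe sets called. The log2 difference was negative for 8 of 9 genes, with a median of -0.54 (-0.004 for all probe sets). With each array centred on its median, which moved the median of all probe sets to 0.12, the median of the muscle genes was -0.41. Tnnc2 had signals of 68.2, 39.8 and 36.7 with LY294002, a difference of -0.76 ± 0.37 (adjusted p = 0.221), and Acta1 had 290, 226 and 206, a difference of -0.44 ± 0.28 (adjusted p = 0.372). In both genes the groups overlapped, and on each number the LY294002 array was lower than the DMSO array. With replicate number as a block, the arrays of these groups meeting the criterion for pairing, both were past the threshold (adjusted p = 0.0348 and 0.0324) and the other 7 genes were not, that is 2 of 9 against 14% of all probe sets in the fit with the block.

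Mylpf, with signals of 184, 83.6 and 75 with LY294002, and Myog, with 87.1, 43.8 and 48.2, were likewise lower on each number than in DMSO and overlapped with it (differences of -0.56 and -0.59, adjusted p = 0.424 and 0.41). Myod1 had signals of 74.1, 50.4 and 25.5 (-0.54, adjusted p = 0.442). Tnni2, at 146, 109 and 115, was the sole gene of the 9 with a positive difference, 0.29 ± 0.29 (adjusted p = 0.593). The groups did not overlap in Des, with 67.2, 31.9 and 67.2, and in Ckm, with 47, 63.9 and 66.2, that is 2 of 9 genes lower, against 12.1% of all probe sets. Their differences of -0.70 (adjusted p = 0.315) and -0.48 (0.21) did not pass the threshold. Tnnt3 had signals of 103, 118 and 82.9 (-0.49, adjusted p = 0.305).

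With UO126 the median log2 difference of the 9 genes was 0.40 (-0.0019 for all probe sets) and 0 of 9 passed limma's threshold, against 2.68% of all probe sets. Acta1 had signals of 731, 580 and 341 with UO126 (mean ± SD 551 ± 196, against 333 ± 97.9 in DMSO), a difference of 0.70 ± 0.28 (adjusted p = 0.259). Tnnc2 had signals of 216, 150 and 94.1, a difference of 0.88 ± 0.37 (adjusted p = 0.283). These were the 2 genes with an unadjusted p under 0.05. The groups overlapped, yet each UO126 array lay above the DMSO array of its number, and with replicate number as a block both genes were higher (adjusted p = 0.00446 for Acta1 and 0.0334 for Tnnc2), 2 of 9 against 4.74% of all probe sets in that fit. The remaining genes had differences from -0.62 in Des, with signals of 62.1, 85.3 and 31.7, to 0.55 in Mylpf, with 335, 271 and 128. Both regulators were near their DMSO levels, with a difference of -0.04 ± 0.40 in Myod1 and -0.22 ± 0.41 in Myog, and the intervals of -0.89 to 0.80 and -1.09 to 0.66 leave room for changes of either sign. The groups overlapped in each of the 9 genes, against 8.72% of all probe sets not overlapping with UO126 higher and 8.3% with it lower.

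SB202190 gave a median difference of 0.24 (0.012 for all probe sets), with 0 of 9 genes past limma's threshold, against 2.84% of all probe sets. Acta1 had signals of 701, 536 and 401 and a difference of 0.72 ± 0.28 (adjusted p = 0.212), and Mylpf had 395, 274 and 208 and a difference of 0.87 ± 0.40 (adjusted p = 0.288). These 2 genes had an unadjusted p under 0.05, and each SB202190 array lay above the DMSO array of its number. With replicate number as a block both were higher (limma adjusted p = 0.00478 for Acta1 and 0.042 for Mylpf), that is 2 of 9. In that fit 1224 of the 21765 probe sets were called in either direction, and this pair of groups did not meet the criterion for pairing. Tnnc2, with 136, 115 and 90.6, overlapped with DMSO and differed by 0.52 (adjusted p = 0.545). Des and Tnnt3 had negative differences of -0.78 and -0.54 (adjusted p = 0.363 and 0.374), Tnnt3 with signals of 113, 117 and 70. Myog reached its highest signal of all 15 arrays, 176, on SB202190 array 1, beside 90.1 and 70.5 on the others. The differences of Myod1, Tnni2 and Ckm were between -0.12 and 0.24. The groups overlapped in each of the 9 genes, against 11.8% of all probe sets with SB202190 higher and 9.11% with it lower.

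The levels of the 5 groups could be ordered for each gene. For Acta1 the order of the means was UO126 (551), SB202190 (546), DMSO (333), LY294002 (241) and TSA (95.6), and of the neighbours UO126 and SB202190 differed by -0.02 ± 0.28 on the log2 scale, while SB202190 and DMSO, and DMSO and LY294002, did not differ past the threshold. TSA lay apart from LY294002 on every array. For Mylpf the order was SB202190 (292), UO126 (245), DMSO (165), LY294002 (114) and TSA (49.8), and for Tnnc2 UO126 (153), SB202190 (114), DMSO (86.9), LY294002 (48.3) and TSA (14.4), again with no difference past the threshold between neighbours down to LY294002. Tnni2 differed from these in that LY294002 (123) stood second, between UO126 (137) and DMSO (101), followed by SB202190 (93.9) and TSA (2.84). The statements on neighbours hold for the fit without replicate number. With that number as a block, Acta1 passed the threshold for SB202190 and DMSO (limma adjusted p = 0.00478) and for LY294002 and DMSO (0.0324). Tnnc2 did so for LY294002 and DMSO (0.0348). SB202190 and DMSO did not meet the criterion for pairing.

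UO126 and SB202190, at the same dose and time, did not differ in any of the 9 genes at the threshold in limma, against 8.19% of all probe sets, and 1 gene had an unadjusted p under 0.05. This was Tnnt3, with signals of 212, 164 and 188 with UO126 and 113, 117 and 70 with SB202190, a difference of 0.94 ± 0.28 (95% interval 0.34 to 1.54, adjusted p = 0.0517). Its adjusted p was between 0.0189 and 0.263 over 27 alternatives and under the threshold in 10 of them, including those without DMSO array 1, DMSO array 3, TSA array 1 or TSA array 2. The groups did not overlap in Tnnt3 and in Tnni2, both higher with UO126, against 12.2% of all probe sets. For Acta1 the 95% interval of the difference was -0.62 to 0.58.

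LY294002 was set against UO126 and SB202190 after the values above had been seen. It was lower than UO126 in 2 of 9 genes, against 3.02% of all probe sets called lower, namely Tnnc2 (-1.64 ± 0.37, adjusted p = 0.0154) and Acta1 (-1.14 ± 0.28, adjusted p = 0.0249). The LY294002 arrays lay below all UO126 arrays in Tnnc2, Acta1 and Tnnt3, against 12% of all probe sets. Without LY294002 array 2 or 3, or UO126 array 1 or 2, the count was 0, and with replicate number as a block, which met the criterion for pairing here, it was 5, with Ckm, Mylpf and Tnnt3 added (adjusted p = 0.0452, 0.00822 and 0.0435), against 5.41% of all probe sets lower in that fit. All 9 differences were negative, but that of Des, -0.07, turned positive in 5 alternatives (centring on the array median, without LY294002 array 2, UO126 array 1 or UO126 array 2, and without the 5 arrays numbered 2) and that of Myog in the last of these. Compared with SB202190, LY294002 was lower in Acta1 (-1.16 ± 0.28, adjusted p = 0.0235) and Mylpf (-1.43 ± 0.40, adjusted p = 0.044), 2 of 9 genes against 3.02% of all probe sets. The groups did not overlap in these genes and in Tnnc2, against 13.4% of all probe sets, and the count was 0 without LY294002 array 2 or 3 or SB202190 array 1 or 2 and 1 without DMSO array 2, UO126 array 2, SB202190 array 3 or any TSA array.

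The muscle genes varied together across the 15 arrays, which share the 5 treatments and the replicate numbers. Pearson's r between log2 signals was 0.775 to 0.979 over the 10 pairs among Acta1, Mylpf, Tnnc2, Myog and Myod1, highest for Acta1 with Tnnc2, and 0.810 to 0.947 when each group mean was taken out first. Tnni2 and Tnnt3 correlated at 0.882 over all arrays and at -0.068 with the group means taken out. Des correlated with the other tested genes except Ckm at 0.445 to 0.677. The tested Ckm probe set stood apart, with r of 0.0749 to 0.280 with the other 8 genes.

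Genes with more than 1 probe set did not always give a single picture. The second Tnni2 probe set, with signals of 56.5, 17.5 and 30.7 in DMSO and 4.83, 4.34 and 3.52 with TSA, followed the tested one (r = 0.934 over 15 arrays), whereas the remaining one, between 0.679 and 5.76 on all arrays, did not (r = -0.572). The second Des probe set had 30.3, 60.4 and 29.2 in DMSO and 34.1, 34.3 and 27.6 with TSA, so the groups overlapped there, and it correlated with the tested one at -0.147. Of the 2 Ckm probe sets, the tested one is annotated to an expressed sequence tag and the one under the threshold to the reference mRNA; the latter had signals between 6.09 and 31.8 and correlated with the tested one at 0.288. The second Myod1 probe set was between 0.869 and 13.9 on all arrays.

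Among 11742 other genes, those whose log2 signal most resembled the mean of the 9 muscle probe sets over the 15 arrays were Myl1 (r = 0.990) and Actc1 (r = 0.990), followed by the limb homeobox gene Hoxa11 (0.975), the growth factor binding protein Igfbp3 (0.969) and Pacrgl (0.967). Of the first 20, with r of 0.945 or more, 6 were in the 4 further lists of skeletal muscle genes, Myl1, Actc1, Actn2, Myh3, Myl4 and Casq2, lists that make up 0.315% of the 11742 genes. The others included the lipid synthesis genes Idi1, Fads1, Fasn and Cyp51. With group means taken out, Actc1 (0.956), Myl1 (0.949), Tnnc1 (0.943) and Myh3 (0.939) were among the first 20, where the first was the zinc finger gene Zfp386 (0.958), and Igfbp3 and the 4 lipid genes were not.

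The other skeletal muscle genes extended the picture beyond the 10 genes. With TSA, of 15 other sarcomere genes 9 were lower and 1 higher, where 28.4% of all genes were lower and 30.6% higher. The TSA signals of several of these genes lay under 50, so the differences with signals under 50 set to 50 are given beside the fitted ones. With that floor the list held fewer lower genes, namely Actc1, Myh3, Myl1, Myl4 and Tnnc1. Actn2, Tnni1, Tnnt1 and Tnnt2 were then not past the threshold (adjusted p = 0.633, 0.112, 0.46 and 0.242). Myl1 had signals of 323, 205 and 140 in DMSO and 17.9, 18.6 and 14.6 with TSA, and fell by 3.63 ± 0.38 (adjusted p = 9.12e-07; -2.07 with the floor of 50, adjusted p = 0.000367). Actc1 had 802, 484 and 240 in DMSO and 54.7, 51.9 and 31.3 with TSA, and fell by 3.34 ± 0.44 (adjusted p = 1.08e-05; -3.12 with the floor). In both genes the groups did not overlap, and the fitted differences of Myl4, an embryonic myosin light chain, and Myh3 were -3.87 and -2.62, or -1.66 (adjusted p = 0.00151) and -1.18 (adjusted p = 0.0436) with the floor. Actn3, a Z-disc actinin of fast fibres, was higher by 0.51 (adjusted p = 0.0411), a call lost with the floor (0.108). Of 11 membrane and calcium genes 5 were lower and 1 higher with TSA, against the same 28.4% and 30.6%. With the floor, those lower were Cav3 and Jph2, and those higher were Dmd and Hrc. The caveolin of muscle, Cav3, had signals of 95.7, 90.5 and 90.7 in DMSO and 3.62, 6.14 and 7.18 with TSA (fitted difference of -4.09 ± 0.28, adjusted p = 1.24e-08, and -0.88 with the floor, adjusted p = 7.56e-08), and the junctional protein gene Jph2 fell by 1.31, whereas Dmd, which encodes dystrophin, rose by 0.89 (0.51 with the floor). Cav3 reached a mean of 50 in DMSO alone and Dmd with TSA alone. Both were thus tested only because of the group in which they were high, and their calls follow in part from that filter.

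Of 5 muscle energy genes 3 were higher with TSA, against 30.6% of all genes, and 0 were lower, the other 2 having negative differences (lowest -0.42) that did not pass the threshold. Cox7a1, a muscle subunit of cytochrome oxidase, had signals of 27.7, 34.6 and 20.4 in DMSO and 132, 122 and 131 with TSA (2.25 ± 0.27, adjusted p = 4.49e-06, and 1.36 with the floor), and Pfkm, muscle phosphofructokinase, had 349, 364 and 315 against 755, 735 and 618 (1.03 ± 0.09, adjusted p = 2.51e-07). Fabp3, a fatty acid binding protein, rose by 0.87. Of 6 regulation and fusion genes 2 were higher, Itga7 (1.45, and 0.95 with the floor) and Six4 (0.58), against 30.6% of all genes, and Hacd1 was lower (-0.95). Cox7a1 and Itga7 passed the signal threshold with TSA alone. These genes were thus tested only because of the group in which they were high, and their calls as higher follow in part from that filter. The lists cover genes that other cells express as well, and Cox7a1, Pfkm and Fabp3 are not restricted to muscle.

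With the other inhibitors few of the 37 genes passed the threshold. With LY294002 these were 2, against 9.47% of all genes, namely Cav3, with signals of 40, 38.8 and 42.5, all below DMSO (-1.19 ± 0.28, adjusted p = 0.0195), and Mybpc1, a myosin-binding protein, with 23, 38.6 and 22.1, also below DMSO (-0.92 ± 0.25, adjusted p = 0.0335). With signals under 50 set to 50, Cav3 differed by -0.88 (adjusted p = 2.15e-05) and Mybpc1 was no longer past the threshold (0.807). The count was 0 without DMSO array 2 or LY294002 array 1, 1 without DMSO array 1 or 3 or LY294002 array 2 or 3, and 5 of 37 with replicate number as a block, all lower, against 6.87% of all genes lower in that fit. With UO126 it was 1 (3.45% of all genes), Mef2c, a regulator of muscle and of chondrocyte hypertrophy, with 415, 422 and 540 against 333, 285 and 304 in DMSO (0.57 ± 0.14, adjusted p = 0.0424). That count was 0 without any 1 of 10 of the 15 arrays. With SB202190 there were 2 (3.52% of all genes), Cav3, with 28.7, 29.4 and 48.2 (-1.42 ± 0.28, adjusted p = 0.0148), and Hacd1 (-0.37 ± 0.09, adjusted p = 0.0397), and the count was 0 without DMSO array 2 or SB202190 array 1 or 2. Cav3 reached a mean of 50 in DMSO alone (92.3, against 40.4 with LY294002, 48.1 with UO126 and 35.4 with SB202190). It was thus tested only because of the group in which it was high, and its calls as lower follow in part from that filter. With signals under 50 set to 50, Cav3 was lower with UO126 as well (-0.82, adjusted p = 3.08e-05).

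**Figure D4:**
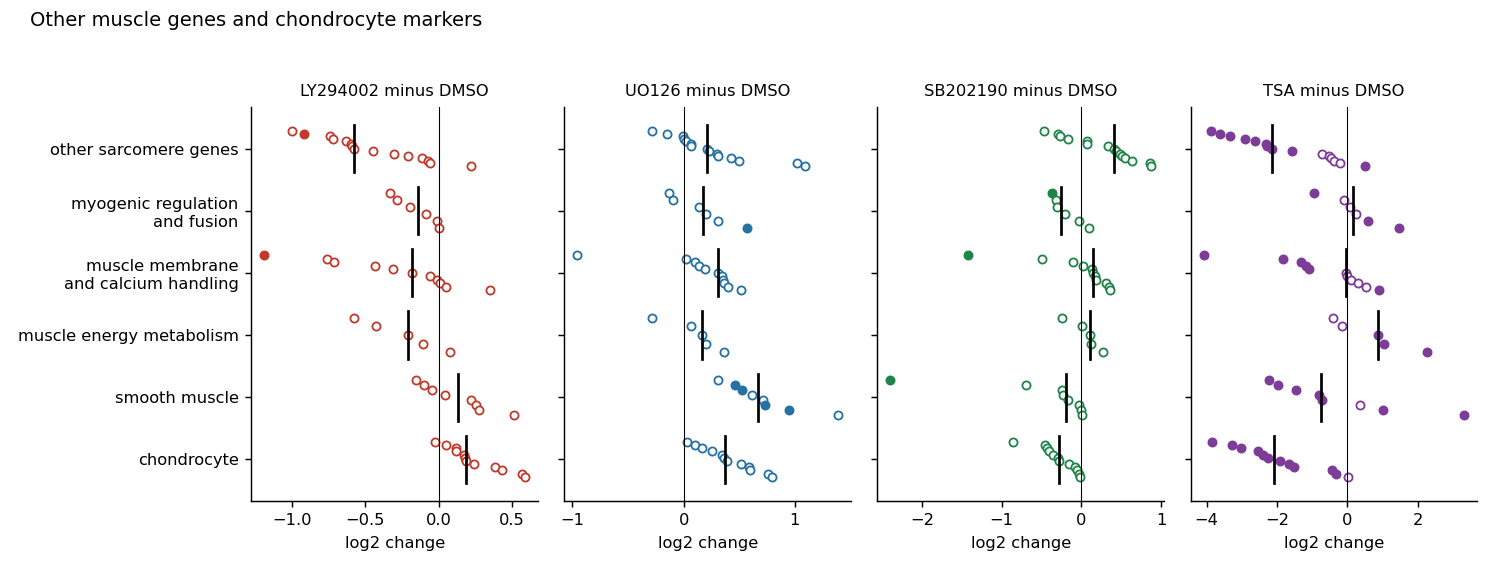
Log2 difference from DMSO with each inhibitor of 4 groups of other skeletal muscle genes, smooth muscle genes and chondrocyte markers, 1 point a gene, filled where the adjusted p was under 0.05, with a bar at the median. The scales differ between panels. With TSA most sarcomere genes and chondrocyte markers lie below 0 and 3 of 5 energy genes are filled above 0.

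Markers of smooth muscle were examined beside those of skeletal muscle. With UO126 4 of 8 smooth muscle genes were higher, against 3.45% of all genes in either direction, and 8 of 8 had positive differences (median log2 difference 0.67). Between UO126 and SB202190 7 of 8 were higher with UO126 (9.77% of all genes in either direction), and so were 6 of 12 chondrocyte markers. All 12 chondrocyte markers had positive differences there (median 0.73). In both comparisons 0 of 9 of the skeletal genes passed. With TSA 5 of the 8 were lower and 2 higher, against 28.4% and 30.6% of all genes. Of the 8, Myocd and Synpo2 passed the signal threshold with TSA alone. They were thus tested only because of the group in which they were high. Calls of these genes as higher follow in part from that filter. The chondrocyte markers had a median difference of 0.19 with LY294002, 0.38 with UO126 and -0.29 with SB202190, with 0 of 12 past the threshold in each (2, 6 and 2 at an unadjusted p under 0.05). With replicate number as a block 4 of 12 were higher with LY294002, Comp, Matn1, Col11a2 and Snorc (adjusted p = 0.00136, 0.0023, 0.0113 and 0.0125), against 9.51% of all genes, and 5 of 12 with UO126, these and Acan (adjusted p between 0.000111 and 0.00377), against 3.38%. In that fit 3 of 12 were lower with SB202190, where 1224 of the 21765 probe sets were called in either direction. SB202190 and DMSO did not meet the criterion for pairing. Of the cardiac markers, 4 of 10 passed the signal threshold, namely Hand2, Mybpc3, Nkx2-5 and Nppb, while Myh6, Nppa, Gata4, Tnni3, Myl7 and Myl3 did not. Of 5 endothelial markers 1 passed it, and of 5 macrophage markers 4 did. The 8 fibroblast and tendon markers passed it, as did the 2 of 4 Schwann and glial markers that had a probe set.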

How the data were processed

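Total RNA from 15 cultures was hybridised to Affymetrix Mouse Genome 430 2.0 arrays. The authors deposited 1 table of MAS5 signal intensity per probe set, linear and already scaled to a common trimmed mean of 150, with no detection calls used here. Probe sets were named from the platform annotation, in which 34958 had 1 symbol, and the 64 control probe sets were left out. Probe sets with a group mean of 50 in at least 1 of 5 groups, after the signal filter in the study's methods, were tested, 21765 in all, for 11751 genes. After a floor of 1 and log2 transformation, limma 3.58.1 (R 4.3.3) fitted the 5 group means over the 15 arrays together (empirical Bayes with a variance trend, two-sided, Benjamini-Hochberg over all probe sets tested in a comparison, threshold 0.05). The fit was tested on simulated data. Replicate number was tested by an F test in a model with group. Differences are signed as named, first minus second, and are log2 changes ± SE unless a signal is given.

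The 10 genes and the lists of other genes were chosen with earlier results of these data known. Genes named from the other lists are up to 4 with the smallest p past the threshold in a comparison and up to 2 further genes in list order, each list gene by its probe set with the highest mean log2 signal. Genes of like pattern are the 20 with the highest r. The criterion for pairing was that equal numbers in a pair of groups had deviations from their own group's mean with r over 0.1, for all 3 numbers. This held for LY294002 and DMSO (0.425, 0.161 and 0.302), UO126 and DMSO (0.419, 0.235 and 0.223) and LY294002 and UO126 (0.339, 0.175 and 0.217), but not for SB202190 and DMSO (0.130, 0.095 and 0.235) or TSA and DMSO (0.096, 0.169 and 0.048). Promoter windows were taken from RefSeq (GRCm38.p6), which matched 7 of the 10 genes. The alternatives were quantile normalization, centring on the array median, no filter, a filter in 2 groups, signals under 50 set to 50, log2 of signal plus 16, no variance trend, the 2 groups alone, a block for replicate number, and the omission of single arrays or of the 5 arrays of a number. The comparisons of LY294002 with UO126 and SB202190 were added after seeing the data.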

Additional observations from a re-analysis of the deposited data

How the results depend on the processing

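The 7 genes lower with TSA numbered 5 to 8 over all alternatives (6 to 8 when single arrays were left out), and no called difference changed sign. The samples of SB202190 and DMSO, TSA and DMSO, UO126 and SB202190, and LY294002 and SB202190 did not meet the criterion for pairing. Even so, each of their correlations at equal numbers was positive (lowest 0.048). For all 15 arrays the mean correlation was highest with the other arrays of the same number. With replicate number as a block, the counts of the 9 genes past the threshold were 2 for LY294002, 2 for UO126 and 2 for SB202190 (Acta1, adjusted p = 0.00478, and Mylpf, 0.042) in place of 0, 8 for TSA, 1 for UO126 against SB202190, 5 for LY294002 against UO126 and 4 for LY294002 against SB202190, and the block ended no call of these 9 genes. UO126 against SB202190 gave 1 with quantile normalization, a filter in 2 groups, signals under 50 set to 50, log2 of signal plus 16 and the 2 groups alone, and 0 to 1 without single arrays. LY294002 against UO126 gave 1 when centred on the median, with no filter and without the arrays numbered 1, 0 without those numbered 2, and 0 to 3 without single arrays. LY294002 against SB202190 gave 1 when centred, with no filter, with signals under 50 set to 50, with no variance trend and without the arrays numbered 1 or 3, 0 without those numbered 2, and 0 to 3 without single arrays. The genes differing by replicate number were 2 to 5 without single arrays.

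For the 37 other skeletal muscle genes, LY294002 gave 1 (centred, filter in 2 groups, signals under 50 set to 50, 2 groups alone), 5 (block), 0 (without the arrays of any number) and 0 to 2 (without single arrays) in place of 2. UO126 gave 0 (centred, no filter, no variance trend, 2 groups alone, without the arrays of any number), 2 (log2 of signal plus 16, all probe sets), 3 (signals under 50 set to 50) and 0 to 3 (without single arrays) in place of 1. SB202190 gave 1 (centred, no filter, filter in 2 groups, no variance trend, 2 groups alone), 0 (without the arrays of any number) and 0 to 2 (without single arrays) in place of 2. UO126 against SB202190 gave 8 with all probe sets in place of 3. The settings with fewer arrays test with fewer degrees of freedom, and the cause of the other differences was not tested. Signals under 50 have no reliable order, and 3 arrays a group limit what can be seen.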
